A study of Mus musculus with 57 samples.

Results

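Long noncoding RNAs (lncRNAs) that first appear after the 2-cell stage of mouse development were followed in total RNA from oocytes and preimplantation embryos. The set holds the annotated lncRNAs with a mean under 0.5 FPKM in MII oocytes, zygotes, early 2-cell (E2-cell) and late 2-cell (L2-cell) embryos and a mean of 1 FPKM or more in at least 1 of the 4-cell, 8-cell, morula and blastocyst stages. FPKM gives the fragments of a gene relative to its length and to the size of its library, so that levels of genes of unequal length can be set side by side. Annotated means a GENCODE M21 biotype of lincRNA, antisense, processed_transcript, sense_intronic, sense_overlapping or bidirectional_promoter_lncRNA. 142 of 9675 such rows passed, in a table of 59119 rows, and 1346 of the 9675 reached 1 FPKM in any stage mean. Another 6 rows met both thresholds and were left out by name: Rian, Platr4, Platr5, Platr10, Platr13 and Platr16.

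The stage series held wild type C57BL/6 material with 2 columns for each of the 8 stages, made from 150 to 200 embryos a sample. Further samples, none of which chose the members, covered 14, 17 and 20 h after fertilization (2 columns each), a knockdown of LncR-3363 (4 control columns, 4 KD-1cell columns and 1 KD-2cell column) and a knockout of MT2Mm at Late1c and Early2c (3 control and 3 knockout columns at each). These embryos were BDF1, fertilized in vitro with BDF1 sperm, and the oocyte donors of the MT2Mm groups were 6 to 8 weeks old. LncR-3363 is an RNA known here only by that code, and its knockdown used an antisense oligonucleotide (ASO, 20 uM) injected into the MII oocyte. MT2Mm is the long terminal repeat of the MERVL endogenous retrovirus, and its knockout used guide RNA at 150 ng/uL with Cas9 mRNA at 100 ng/uL. The labels do not say what share of cells carried the deletion, nor whether controls were injected. The names Late1c and Early2c are those of the labels.

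Most lncRNAs of the set are known only by a number, but some are among the best studied in the mouse. Xist is the RNA that coats 1 X chromosome of female cells and silences it in cis. In the mouse embryo it is first made from the paternal X chromosome, which stays silent in the trophectoderm and is switched on again in the inner cell mass of the blastocyst. The X-inactivation centre around Xist also makes Ftx, a lncRNA that promotes Xist transcription, Jpx, and Tsix, the antisense repressor of Xist. Firre is an X-linked nuclear RNA that escapes silencing and holds many copies of a local repeat, and 4933407K13Rik is transcribed across Dxz4, the tandem repeat at the hinge between the superdomains of the inactive X. Neat1 is the architectural RNA of nuclear paraspeckles.

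The X-linked members are shown first, because 3 of them held more internally repeated sequence than any other member. In the longest annotated transcript of each lncRNA, bases that lie in a stretch of 16 letters found at least 3 times in the same transcript numbered 2295 in Xist (12.8% of 17946 bases), 1974 in Firre (35.5% of 5555) and 1137 in 4933407K13Rik (26.1% of 4364). Over the set 5 of 142 lncRNAs (3.52%) had at least 100 such bases, against 41 of 1346 annotated lncRNAs (3.05%) seen in any stage, so repeats of this kind were about as frequent as elsewhere. The 61-base unit of Firre occurs 8 times in the transcript, with copies starting between positions 394 and 3806. The 29-base unit of Xist occurs 8 times, starting between positions 3252 and 4531. The 163-base unit of 4933407K13Rik occurs 4 times, starting between positions 635 and 1124. A unit here is the longest identical stretch found without overlap a set number of times. That number was at least 8 for Firre and Xist and at least 4 for 4933407K13Rik. Asked for at least 4 times, the stretch was 85 bases in Firre and 65 in Xist. The lengths of 61, 29 and 163 bases are therefore not repeat periods and cannot be set side by side. The units are printed 5′ to 3′ from the GENCODE M21 transcripts.
Firre repeat unit: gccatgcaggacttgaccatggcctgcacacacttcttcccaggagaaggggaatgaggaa
Xist repeat unit: actcagcctataagactgagatagcccat
4933407K13Rik repeat unit: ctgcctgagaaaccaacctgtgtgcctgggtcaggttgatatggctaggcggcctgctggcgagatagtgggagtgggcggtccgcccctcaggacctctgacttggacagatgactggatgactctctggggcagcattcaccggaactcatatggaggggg
The next repeats in size belonged to E430024I08Rik on chromosome 13 (696 bases, 43.1% of 1614) and Neat1 (175 bases of 20771). Copies of E430024I08Rik elsewhere in the genome were not searched for, so it is unknown whether it shares reads with other loci, and its level is uncertain.

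The promoters of 4 members are printed next, since these lncRNAs carry the highest levels or the X-linked results below. Each is the RefSeq window on GRCm38.p6 from 250 bases before to 50 bases after the start, in the direction of the transcript. Capitals mark matches to any of 10 short motifs that were searched on both strands and are spelled out beside their shares. A match is a run of letters and was not tested as a binding site.
Xist, chrX:103483184-103483483, minus strand: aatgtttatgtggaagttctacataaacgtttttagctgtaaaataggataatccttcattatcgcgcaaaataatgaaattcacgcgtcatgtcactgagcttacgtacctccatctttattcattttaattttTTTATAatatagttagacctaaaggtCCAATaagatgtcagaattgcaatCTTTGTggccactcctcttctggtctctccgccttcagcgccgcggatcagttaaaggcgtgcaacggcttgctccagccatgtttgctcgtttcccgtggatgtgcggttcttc
Firre, chrX:50635272-50635571, minus strand: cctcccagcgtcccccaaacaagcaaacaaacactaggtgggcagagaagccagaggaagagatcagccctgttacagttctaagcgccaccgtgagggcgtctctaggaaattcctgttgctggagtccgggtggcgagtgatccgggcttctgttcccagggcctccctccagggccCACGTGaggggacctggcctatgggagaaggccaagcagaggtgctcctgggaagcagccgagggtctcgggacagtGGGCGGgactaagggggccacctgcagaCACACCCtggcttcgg
Ftx, chrX:103623705-103624004, minus strand: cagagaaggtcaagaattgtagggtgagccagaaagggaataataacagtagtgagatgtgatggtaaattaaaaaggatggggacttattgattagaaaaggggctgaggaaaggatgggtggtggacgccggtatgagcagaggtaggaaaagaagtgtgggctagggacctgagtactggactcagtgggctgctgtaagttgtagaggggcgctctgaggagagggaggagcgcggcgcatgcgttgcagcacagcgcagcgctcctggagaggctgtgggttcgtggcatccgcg
Eprn, chr13:73347335-73347634, minus strand: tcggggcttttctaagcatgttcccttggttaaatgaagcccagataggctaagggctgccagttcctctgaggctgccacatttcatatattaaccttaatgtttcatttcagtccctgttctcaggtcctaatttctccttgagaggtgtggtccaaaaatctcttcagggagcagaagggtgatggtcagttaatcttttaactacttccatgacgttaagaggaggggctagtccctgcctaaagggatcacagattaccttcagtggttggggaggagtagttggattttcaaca
Xist held a TATA box, a CCAAT box and a SOX match, all before the start. Firre held an E-box, a GC box and a KLF match, and neither Ftx nor Eprn held any of the 10 motifs. RefSeq promoters within 1 kb of the annotated start were found for 45 of the 142 members, among 32851 promoters in all. TEAD matches (GGAATG) stood in 26.7% of the 45, in 14.7% of all promoters, in 17.4% of the 426 promoters of annotated lncRNAs seen in any stage and in 23.5% of the 17 of lncRNAs that came on at E2-cell. ETS matches (CCGGAAG) stood in 20.0%, 8.86%, 12.0% and 0% of the same 4 sets. The other motifs are given for the 45 and for all promoters. GC boxes (GGGCGG) stood in 26.7% and 35.7%, CCAAT boxes, named by their letters, in 33.3% and 37.4%, and TATA boxes (TATAAA) in 8.89% and 13.6%. OCT matches (ATGCAAA) stood in 0 of 45 and 4.63%. GATA matches (AGATAA) stood in 8.89% and 11.2%, SOX matches (ACAAAG) in 17.8% and 18.7%, KLF matches (GGGTGTG) in 11.1% and 7.95% and E-boxes (CACGTG) in 11.1% and 7.15%. No 2 of these motifs contain each other, though their matches may overlap. A CpG ratio (observed over expected) of 0.6 or more was found in 16 of the 45 (35.6%) and in 35.8% of all promoters. Promoters that shared a stretch of 20 letters with at least 5 other genes numbered 1 of 45 in the set (2.22%, Gm17768), 5 of 17 (29.4%) among annotated lncRNAs that came on already at E2-cell, and 8.44% of all promoters. These shares are descriptions of the matched promoters, and the members without a match may differ.

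In the stages that chose the members, the set grew in number and in level up to the blastocyst. 39 members were at 1 FPKM or more at the 4-cell stage, 46 at the 8-cell stage, 54 in the morula and 104 in the blastocyst. The highest mean fell at the 4-cell stage for 16 members, at the 8-cell stage for 13, in the morula for 24 and in the blastocyst for 89. The summed level of the 142 was 12.8 and 19.1 FPKM in the 2 L2-cell columns, 116 and 123 at 4-cell, 158 in both 8-cell columns, 232 and 245 in the morula and 388 and 389 in the blastocyst. Most members were low, with a median highest mean of 1.64 FPKM. 86 members reached 1 FPKM in a single stage and 13 in all 4, and 61 first reached it at the blastocyst, the last stage sampled. 8 members reached a mean of 10 FPKM, and the 8 highest members of each stage made up 32.4% to 48.6% of the set's summed level there. 31 members were listed at 0 in all 8 columns of the early stages. All of these values follow from the rule or from the same columns and carry no test. In bulk samples fewer cells of a type and less RNA per cell cannot be told apart, which holds for every level here.

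**Figure D1:**
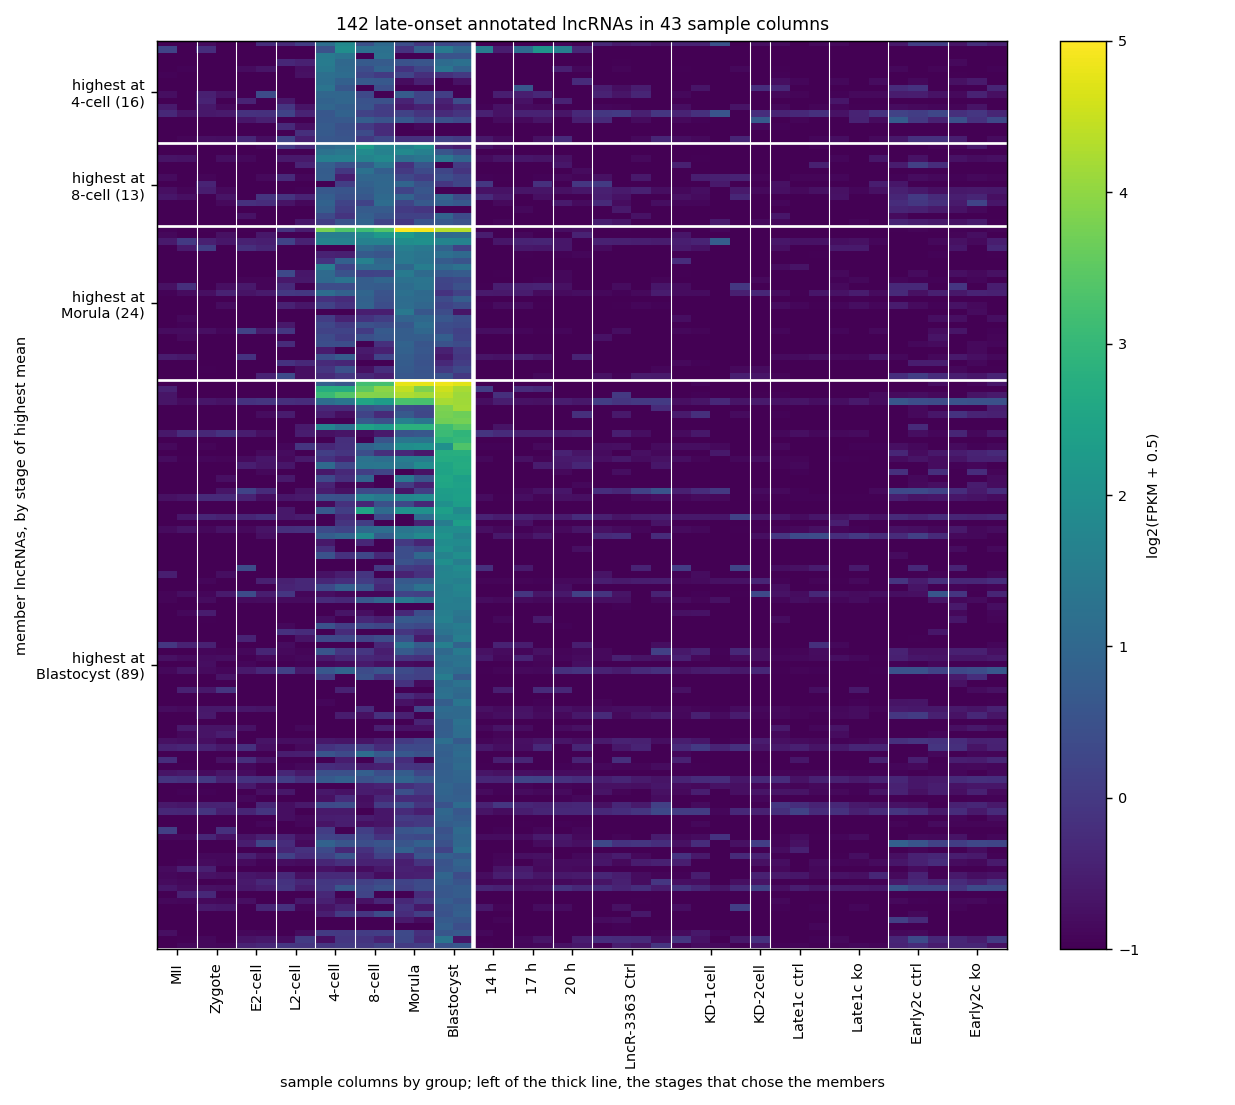
Level of each of the 142 members (rows, grouped by stage of highest mean) in each of the 43 sample columns, as log2(FPKM + 0.5). Left of the thick line are the stages that chose the members, where 89 rows are brightest at the blastocyst; right of it are samples the rule did not use, which are dark for nearly all rows.

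The stage labels were checked against marker genes. Of 18 maternal oocyte genes all were at 1 FPKM or more in MII and 8 in the blastocyst. Of 14 genes of the 2-cell programme 13 were at L2-cell and 0 in the blastocyst. Of 16 inner cell mass genes 6 were in MII and 16 in the blastocyst, and of 16 trophectoderm genes 5 and 14. The 12 primitive endoderm genes separated these stages less, with 6 in MII and 8 in the blastocyst. Their summed level was higher in MII, at 209 to 228 FPKM, than in the blastocyst, at 155 to 162. Among genes of other cells, 1 of 16 cumulus and granulosa markers was at 1 FPKM or more from L2-cell on, Amhr2, and the summed level of that list ran from 24.5 to 26.2 at L2-cell, 39.8 to 41.7 at 4-cell and 2.63 to 2.71 in the blastocyst, while Fshr and Inha were listed at 0 at all 3. Of 8 blood markers Hba-a1 and Hba-a2 reached 1 FPKM at 4-cell and 8-cell and Lyz2 at 8-cell, with sums of 5.80 to 9.13 at 8-cell and 0.682 to 0.777 in the blastocyst, and Hbb-bs and Hbb-bt were listed at 0. Of 11 sperm and testis markers 2 reached 1 FPKM in MII, Prm2 at 6.15 and Ldhc at 2.17, and 0 did in the blastocyst. The part of these genes of other cells in the results was not tested. Columns of the 4 early stages carry a tag of the letter b and a number in their names, which the labels do not explain. Those of the 4 late stages carry a word for merging. What these names stand for and the stage cannot be told apart at the step that defines the set. Columns of the 14, 17 and 20 h groups carry a word for merging too, and there the 142 members summed to 6.71 to 11.7 FPKM. These are BDF1 embryos of an earlier time, and the part of the handling in the step from L2-cell to 4-cell was not tested.

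The X chromosome held 6 members, Xist, Ftx, Firre, 4933407K13Rik, C430049B03Rik and BC065397, or 4.23% of the set against 1.83% of all annotated lncRNA rows and 3.05% of those seen in any stage. Xist, at chrX:103460366-103483254 on the minus strand, was the highest member. It stood at 0.430 and 0.203 FPKM in the L2-cell columns, 13.2 and 9.64 at 4-cell, 8.21 and 10.0 at 8-cell, 30.9 and 29.3 in the morula and 19.6 and 19.5 in the blastocyst. The 4-cell and 8-cell columns overlapped, both morula columns lay above every other column and the blastocyst columns lay between. The labels give no sex, so each level is a mean over the mix of male and female embryos that a library held.

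Ftx, Tsix and Jpx of the X-inactivation centre were lower than Xist at each late stage and highest in the blastocyst. Of the 5 listed genes of the centre with values, 2 were at 1 FPKM or more at 4-cell, Xist and Tsx. In the blastocyst 3 were, Xist, Tsx and Ftx. Tsx is not a member of the set. Ftx was 0.366 and 0.320 FPKM at 4-cell, 0.195 and 0.221 at 8-cell, 0.468 and 0.434 in the morula and 1.22 and 1.60 in the blastocyst, where both columns exceeded all others. Tsix, at 0.781 FPKM on average in the blastocyst and at most 0.0649 before, and Jpx, at 0.102 in the blastocyst, stayed under the 1 FPKM of the rule. Without stated use of strand in counting, reads of Tsix and Xist, which overlap, cannot be told apart. Ftx hosts the microRNA genes Mir421 and Mir374b, whose own rows averaged 1.03 and 0.701 FPKM in the blastocyst. Both lie inside Ftx on its strand and can share its reads, so these values do not measure the microRNAs apart from Ftx. The misc_RNA row Gm27927, which lies inside Xist and can share its reads, was 16.6 FPKM at 4-cell and 47.3 in the morula.

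The remaining X-linked members had their highest level in the blastocyst. Firre was 0.422 and 0.255 FPKM at 4-cell, 1.91 and 1.76 at 8-cell, 2.40 and 2.41 in the morula and 5.96 and 5.89 in the blastocyst, a stepwise climb with no overlap between successive stages. 4933407K13Rik was 0.314 and 0.315 in the morula and 1.31 and 1.27 in the blastocyst. C430049B03Rik was 0.309 and 0.162 in the morula and 6.17 and 6.33 in the blastocyst, and BC065397 was 0.206 and 0.434 and then 0.952 and 1.38. Thus all 5 X-linked members other than Xist were higher in both blastocyst columns than in both morula columns, whereas Xist was lower. Over the set 83 members had both blastocyst columns above both morula columns, where 36.6% of all 19692 rows tested did, and 29 had both below, where 33.4% did. These columns chose the members, so nothing is read from the counts.

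**Figure D2:**
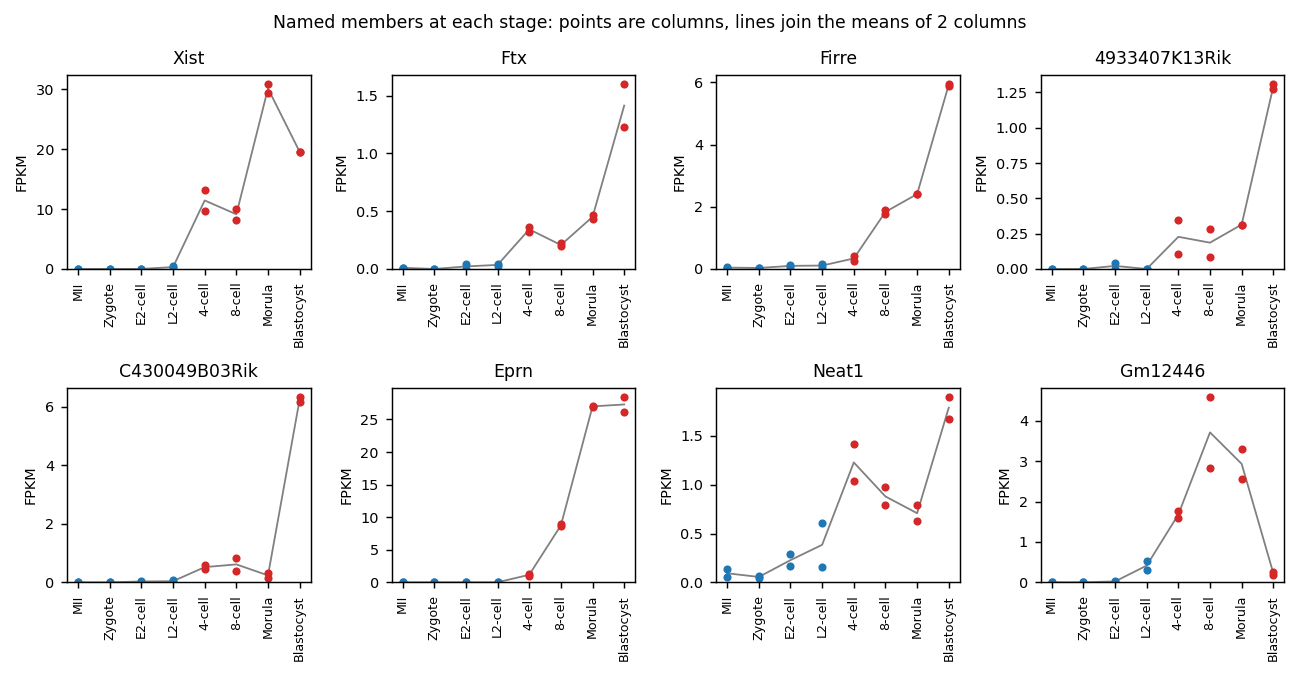
FPKM (linear axes, each from 0) of 8 members at the 8 stages, with blue points for early and red points for late columns and lines through the means of 2 columns. Xist is highest in the morula at 30.1 FPKM, Firre climbs to 5.93 and Eprn to 27.3 in the blastocyst, and Gm12446 returns to 0.225 there.

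Genes coding for proteins that act with or on Xist were mostly present before it. Of 20 listed factors, 16 were at 1 FPKM or more in MII and all 20 in the blastocyst. limma on log2(FPKM + 0.5), with Benjamini-Hochberg adjustment over 19692 rows and calls at an adjusted p under 0.05, called 6 of the 20 at 4-cell against L2-cell, 5 higher and 1 lower, where 30.2% of all rows were called higher and 26.2% lower. It called 9 at 8-cell against 4-cell (2 higher, 7 lower, with 13.4% and 21.6% of rows), 2 at morula against 8-cell (1 each way, with 8.39% and 12.5%) and 8 at blastocyst against morula (2 higher, 6 lower, with 22.4% and 16.3%). At the step from L2-cell to 4-cell Smchd1, needed to keep the inactive X silent, rose by 1.10 on the log2 scale (SE 0.11, adjusted p 9.95e-06) and Lbr, which tethers the inactive X to the nuclear lamina, by 0.80 (SE 0.12, adjusted p 0.00016). Zfp42 (Rex1), a repressor of Xist and target of the ligase Rlim, rose at 4-cell by 1.5 (SE 0.16, adjusted p 1.89e-05) and again at 8-cell and morula, from 2.99 FPKM at L2-cell to 41.5 in the morula, and fell to 23.0 in the blastocyst. The Polycomb genes Ezh2 and Suz12 and the Xist-tethering factor Yy1 fell between morula and blastocyst, Yy1 from 41.4 to 14.9 FPKM (log2 difference -1.45, SE 0.13, adjusted p 5.66e-06). Xist's main silencing partner Spen was 1.67 FPKM at 4-cell and 3.15 in the morula and was called at none of the 4 steps. Fitted on the 2 contrasted stages alone, limma called 12 factors at morula and 13 at blastocyst. Fits without any 1 column of the step called 3 to 5 factors at 8-cell against 4-cell, and without blastocyst replicate 1 the count at blastocyst was 5.

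Among blastocyst-high members Eprn led, at chr13:73344665-73347384. It was listed at 0 in all early columns, and stood at 1.29 and 1.01 FPKM at 4-cell, 8.57 and 8.91 at 8-cell, 27.0 in both morula columns and 28.4 and 26.2 in the blastocyst. Its levels were therefore separate at each stage up to the morula and overlapped between morula and blastocyst. Eprn, also named ephemeron, is known for its part in the exit of embryonic stem cells from naive pluripotency. Gm10479, Gm48941 and Gm42047 were likewise above 1 FPKM from the 4-cell stage on, and no function is given for them here. Gm10479 was 6.13 and 6.09 at 4-cell and 22.9 and 18.0 in the blastocyst, Gm48941 was 7.89 and 9.99 and then 20.5 and 17, and Gm42047 was 1.70 and 2.03 and then 18.1 and 17.1. Gm42047, on chromosome 8, overlaps the read-through gene Gm20388 on the same strand, so that its reads cannot be fully assigned.

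A second form of profile had its largest step at the blastocyst. In 31 members the blastocyst mean was over 5 times the morula mean. Gm48847 was 0.822 and 0.761 FPKM in the morula and 13.7 and 17.6 in the blastocyst, Gm32885 was 1.11 and 0.705 and then 13.2 and 12.4, and 2410003I16Rik was 2.55 and 2.07 and then 12.4 and 12.8. 5330411J11Rik, C430049B03Rik and Gm47599 were of the same kind at lower levels. The opposite form, a blastocyst mean under 1/5 of the morula mean, was seen in 4 members, Gm12446, Gm10030, 1700061E17Rik and Gm11961. In 38 members the level rose at each of the 3 late steps and in 5 it fell at each.

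The members highest in the morula, 8-cell and 4-cell stages were lower, apart from Xist. In the morula D7Ertd128e was 4.45 and 3.32 FPKM, Gm29040 3.31 and 3.56, Gm27204 2.46 and 2.13 and 1010001N08Rik 2.18 and 1.99. At the 8-cell stage Gm12446 was 4.59 and 2.84, Gm29439 3.22 and 2.62, Gm4425 2.71 and 3.04, Gm49432 1.20 and 2.07 and Gm33103 1.87 and 1.24. At the 4-cell stage Gm49312 was 1.75 and 2.996, Gm43809 0.908 and 3.32, Gm26654 2.22 and 1.93, Gm16220 2.32 and 1.55 and Gm53 2.12 and 1.62. The 2 columns of a stage often lay farther apart than neighbouring members did, as in Gm43809, so the order within each stage is not resolved. For Gm4425 the 4-cell columns, 2.49 and 2.56, lay only just below those of the 8-cell stage.

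Neat1, at chr19:5824708-5845478, was the only member from the list of widely studied regulatory lncRNAs apart from Firre and Eprn. It stood at 1.04 and 1.42 FPKM at 4-cell, 0.788 and 0.972 at 8-cell, 0.790 and 0.626 in the morula and 1.90 and 1.68 in the blastocyst. The blastocyst columns were the highest, and the 8-cell and morula columns overlapped. One of its L2-cell columns, at 0.611, lay above the rule's 0.5 FPKM, with the other at 0.158.

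The limma counts of members called at the steps from 4-cell on use the columns that chose the members and are given without reading. Of the 142, 126 passed the filter of 1 FPKM in at least 2 stage columns. At 4-cell against L2-cell 74 were called, all higher, where 56.3% of all rows were called in either direction. At 8-cell against 4-cell 32 were called (27 higher), where 35.0% of rows were (13.4% higher). At morula against 8-cell 37 were (30 higher), where 20.9% of rows were (8.39% higher). At blastocyst against morula 82 were (64 higher), where 38.7% of rows were (22.4% higher). Without 1 blastocyst column the last count was 29 (replicate 1 left out) or 26 (replicate 2), without 4-cell replicate 4 the first late count was 21, and without morula replicate 1 the count at morula was 23. Fitted on the 2 contrasted stages alone, 18 members were called at 8-cell and 22 at morula.

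By position relative to coding genes, intergenic members were the largest class, as they are among all annotated lncRNAs. 83 of the 142 (58.5%) were intergenic, 37 (26.1%) overlapped a coding gene on the opposite strand, 13 (9.15%) overlapped one on the same strand and 9 (6.34%) were divergent, that is on the opposite strand without overlap and with starts within 2 kb. Over all 9675 annotated lncRNA rows the shares were 53.4%, 35.8%, 5.06% and 5.70%. The median member had 3 exons in its longest form and 1010 exonic bases, and 15 members (10.6%) had a single exon, against 6.997% of all such rows. Members lie on every autosome and on X, most often on chromosomes 3 (14), 11 (13) and 10 (12).

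Pairs of a member and a coding gene whose starts lie within 2 kb on opposite strands were set side by side over the stages. There were 21 such pairs, 12 with overlapping 5′ ends and 9 divergent, a grouping chosen after the values were seen. Pearson's r of log2(FPKM + 0.5) over the 16 stage columns had a median of 0.613 in the 21, with 13 over 0.5 and 6 below 0. In the 25 antisense pairs with starts farther apart the median was 0.155, with 9 over 0.5 and 11 below 0. For all annotated lncRNAs seen in any stage the medians were 0.549 (220 pairs) and 0.300 (298 pairs), in the same order as within the set. The r values describe points that share libraries, and the counting of strand is not stated, so overlapping genes may share reads. The rule also fixed each member as low in the 8 early columns and high in a late stage, so a partner that rose after L2-cell gives a high r, and nothing is read from these values about the set.

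In 4 of these pairs r was over 0.9. Gm4675 (chr14:118236232-118261199) starts 798 bases from Sox21, a SOX factor whose level differs between 4-cell blastomeres and bears on their fate, with r 0.966. Sox21 was 1.65 and 0.996 FPKM in the L2-cell columns and 20.0 and 17.7 at 4-cell, a log2 rise of 3.43 (SE 0.18, limma adjusted p 1.40e-07), and fell to 3.68 and 4.82 in the blastocyst, while Gm4675 went from 1.56 and 1.94 at 4-cell to 0.693 and 0.754. 1010001N08Rik (chr18:10987944-11052567) starts 503 bases from Gata6, the factor that specifies primitive endoderm, with r 0.932. Gata6 was 0.320 and 0.273 at L2-cell, 14.01 and 13.6 at 4-cell (log2 rise 4.17, SE 0.10, limma adjusted p 1.16e-09) and 62.3 and 60.2 in the morula, where its partner had its own highest columns. Gm12446 (chr4:46300007-46345515) starts 1906 bases from Foxe1, a forkhead factor, with r 0.953. Foxe1 was 25.6 and 22.3 at 8-cell, 14.8 and 13.3 in the morula and 0.271 and 0.300 in the blastocyst, a fall of 4.21 on the log2 scale (SE 0.13, limma adjusted p 3.30e-09), and Gm12446 fell from 2.56 and 3.32 to 0.267 and 0.183 over the same step. Gm9888 (chr9:114780100-114782257) starts 1756 bases from Cmtm7, a membrane protein of the CKLF-like family, with r 0.964. Cmtm7 went from 6.996 and 7.43 in the morula to 34.4 and 32.7 in the blastocyst (log2 rise 2.14, SE 0.12, limma adjusted p 1.29e-07), where Gm9888 went from 1.078 and 0.905 to 1.23 and 1.63.

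Further antisense members sat against genes of the blastocyst. A230005M16Rik was listed at 0 in every stage column before the blastocyst and at 1.26 and 0.869 FPKM there, where its antisense partner Bmyc, a short relative of Myc, went from 5.26 and 4.95 to 44.2 and 40.8 (log2 rise 2.94, SE 0.26, limma adjusted p 4.21e-06). Gm13261 reached 1.95 and 2.19 in the blastocyst, and Sfmbt2, the imprinted Polycomb gene needed in the trophoblast, whose start lies 3531 bases away, went from 1.48 and 1.49 to 16.1 and 16.7 (log2 rise 3.09, SE 0.11, limma adjusted p 7.30e-09). Gm16136, the highest antisense member after Xist, starts 273 bases from Grhl2, a transcription factor of epithelia. Gm16136 was 0.136 and 0.584 in the morula and 4.58 and 4.76 in the blastocyst, and Grhl2 rose by 1.77 over that step (SE 0.45, limma adjusted p 0.00867) with blastocyst columns of 7.07 and 15.3, but the pair's r was 0.457, since Grhl2 was also 10.2 and 11.1 at 4-cell, where Gm16136 was 0.190 and 0.101. Ptpmt1 with Kbtbd4 (r -0.226) and Lrrc75aos2 with Lrrc75a (r -0.578) completed the 5 highest antisense members. In other pairs the levels moved in opposite directions, as in Gm16220 with Gm5134 (r -0.834), Gm14198 with Zfp341 (r -0.793) and Ptprtos with Ptprt (r -0.763).

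**Figure D3:**
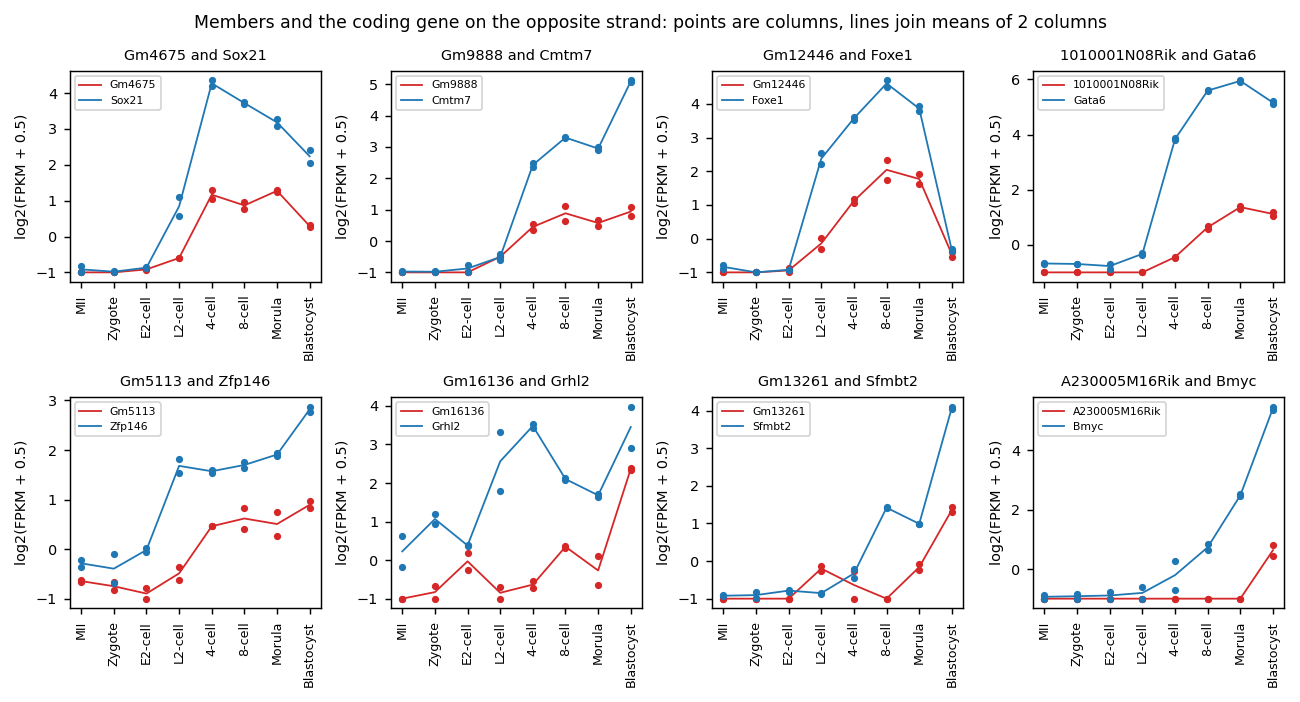
Log2(FPKM + 0.5) of 8 members (red) and of the coding gene on the opposite strand (blue) over the 8 stages, with points for columns and lines through the means of 2 columns. Gm4675 and Sox21, Gm9888 and Cmtm7, Gm12446 and Foxe1, and 1010001N08Rik and Gata6 have r of 0.966, 0.964, 0.953 and 0.932, and Gm16136 parts from Grhl2 at 4-cell.

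The 9 divergent pairs, which do not overlap, had a median r of 0.172, with 4 over 0.5 and 4 below 0, against a median of 0.525 in 97 divergent pairs of all annotated lncRNAs seen in any stage. Gm5113 starts 125 bases from the zinc finger gene Zfp146 (r 0.863), Gm12319 709 bases from the muscle enolase gene Eno3 (r 0.613) and Map2k3os 166 bases from the kinase gene Map2k3 (r 0.583). 2010001A14Rik starts 220 bases from Sap30l, a subunit of the Sin3 corepressor, and 5033430I15Rik 245 bases from Atxn1, and in both pairs the levels ran in opposite directions (r -0.711 and -0.690). Of 45 coding partners in all, 37 passed the filter. limma called 17 higher and 6 lower at 4-cell against L2-cell, where 37.1% and 22.4% of protein-coding rows were called. At 8-cell against 4-cell 8 were called each way (15.0% and 23.3% of protein-coding rows), at morula against 8-cell 3 higher and 4 lower (9.52% and 14.7%), and at blastocyst against morula 14 higher and 7 lower (29.8% and 17.6%). Without any 1 column of the step the 16 calls at 8-cell came to 6 to 9 and the 7 at morula to 2 or 3, and a fit on the 2 contrasted stages alone called 15 at morula.

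Some members lie next to each other. D7Ertd128e and Gm29439 on chromosome 7 are 11697 bases apart on the same strand, with r 0.986 over the stage columns. 1700061E17Rik and Gm10030 on chromosome 9 are 1694 bases apart on the same strand (r 0.961), and both were listed at 0 in the 2 blastocyst columns after 1.14 and 1.15, and 1.185 and 1.48 FPKM, at 8-cell. Gm43848, Gm43328, Gm43330 and Gm5547 lie in and beside Rap1a on chromosome 3, a gene of the Ras family, with r of 0.830 to 0.878 between neighbours. Gm42937 and Gm42941 lie 14754 bases apart on the same chromosome (r 0.921). Gm43328, Gm43330, Gm42937 and Gm42941 are sense_intronic, and in total RNA their reads cannot be told from those of the unspliced host transcript. Among intergenic members the nearest coding gene ran closest in C330024D21Rik with Bend4 (r 0.979, 35587 bases apart), Gm47805 with Jarid2, a Polycomb cofactor (r 0.952, 104257 bases), 2410003L11Rik with Epop (r 0.937) and Eprn with Mrpl36 (r 0.910), which were named after their values were seen.

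The rows with a course most like that of Xist included genes of other chromosomes. Over 19691 other rows and the 16 stage columns, the rows with the highest Pearson's r to Xist were XLOC_002252, a locus without a position in the table (r 0.997), Gm27927 inside Xist (0.994), the caspase gene Casp6 (0.992), Gm49089 on chromosome 15 (0.991) and Smpdl3a, a phosphodiesterase gene (0.989). Casp6 averaged 7.09 FPKM at 4-cell, 7.07 at 8-cell, 10.6 in the morula and 8.95 in the blastocyst. These are the highest of many values over the same libraries and describe a shared stage course.

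Samples that the rule did not use gave a check of the early silence of the set. None of them is labelled late 2-cell, so the check does not reach the stage just before the set appears. The names of the LncR-3363 controls give no stage. By group mean 141, 139 and 141 of the 142 members were under 0.5 FPKM at 14, 17 and 20 h, 140 in the LncR-3363 controls, 141 in the Late1c and 135 in the Early2c MT2Mm controls. Among the 1346 annotated lncRNAs seen in any stage, 39.3% to 49.6% were under 0.5 in the 10 groups. In all 130 members were under 0.5 FPKM in every one of these groups, and 12 were not. Gm43809 was the highest of the 12, with 2.42 and 0.203 at 14 h, 1.64 and 3.83 at 17 h and 2.501 and 0.283 at 20 h, and it was listed at 0 in all knockdown and knockout columns. It was the only member that passed the filter of the time series, and limma called it neither at 17 h against 14 h (log2 difference 1.09, adjusted p 0.355, where 37.0% of rows were called) nor at 20 h against 17 h (19.6% of rows). No member passed the filter in the knockdown or knockout fits, so the count there is 0 of 0 tested, where 43.7% of rows were called in the knockdown, 0.114% in the knockout at Late1c, 33.4% higher and 15.6% lower in the knockout at Early2c and 79.2% between Early2c and Late1c controls.

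**Figure D4:**
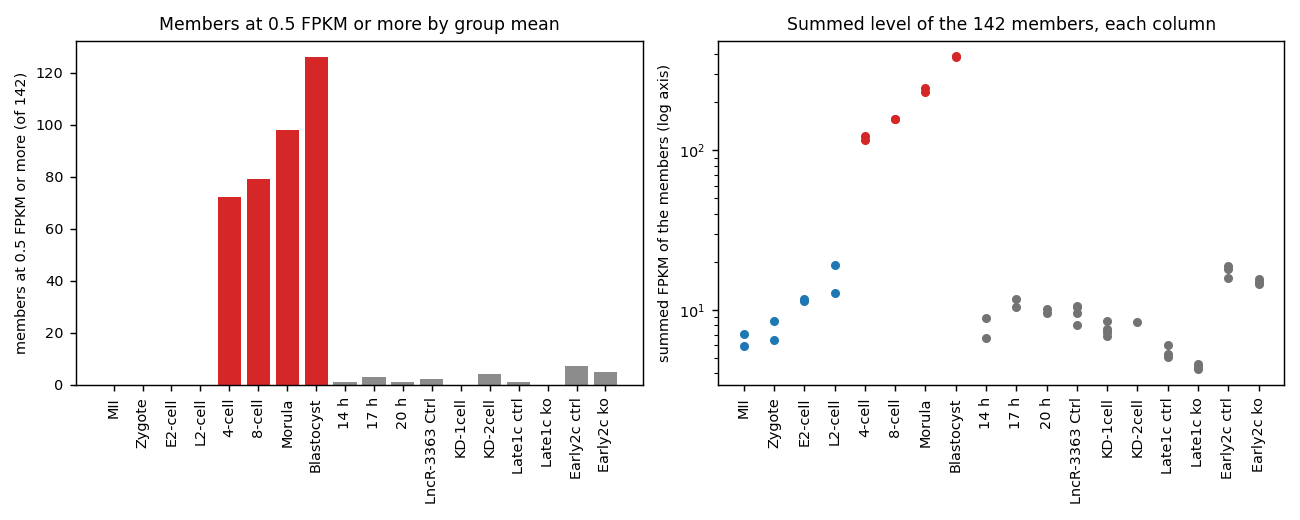
Left, the number of the 142 members at 0.5 FPKM or more by group mean (0 by rule in blue, 72 to 126 in the late stages in red, 0 to 7 in grey groups that the rule did not use). Right, the summed FPKM of the members in each column on a log axis, where Early2c columns, at 14.5 to 18.8, lie above Late1c columns, at 4.27 to 6.01.

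The summed level of the members was higher at Early2c than at Late1c in the MT2Mm controls. The set summed to 6.01, 5.03 and 5.31 FPKM in the Late1c control columns and 18.0, 18.8 and 15.9 in the Early2c control columns, without overlap. In the fit without a filter on low values, an alternative in which 124 members could be tested, limma called 37 members higher and 2 lower (Gm29040 and 1700113A16Rik), where 18.8% of all 43218 rows were called higher and 16.4% lower, and 14.5% and 6.35% of annotated lncRNA rows. Neat1 was 0.0148, 0.0319 and 0.0234 FPKM at Late1c and 0.936, 0.928 and 0.669 at Early2c, a log2 difference of 1.35 (SE 0.11, limma adjusted p 4.96e-06). Gm42047 was 0.116, 0.138 and 0.0802 and then 1.02, 0.862 and 0.818 (log2 difference 1.19, SE 0.09, adjusted p 2.76e-06), and Gm16136 was 0.0548, 0.0184 and 0 and then 0.755, 0.763 and 0.651 (1.22, SE 0.11, adjusted p 9.26e-06). Gm42941, a sense_intronic row, was 0.0268, 0.0985 and 0 and then 1.29, 0.984 and 0.635 (1.42, SE 0.16, adjusted p 3.61e-05). Gm49617, another sense_intronic row, was 0, 0.0266 and 0 and then 1.176, 0.494 and 0.240 (log2 difference 1.08, SE 0.28, adjusted p 0.0128). Xist was also called, at 0.00202, 0 and 0 and then 0.0140, 0.0311 and 0.0159 (log2 difference 0.06, adjusted p 0.0238), levels far below those of the 4-cell stage. In the time series without a filter, Neat1 (0.0598 and 0.0453 at 17 h, 0.384 and 0.437 at 20 h, adjusted p 0.0157) and Xist (0 and 0.00873, then 0.0832 and 0.107, adjusted p 0.0315) were the 2 members limma called at 20 h, both higher, where 2.49% of rows were called higher. At 17 h against 14 h it called E430024I08Rik, at 0.284 and 0.275 and then 0.666 and 0.627 (log2 difference 0.56, SE 0.10, adjusted p 0.0438), where 4.55% of rows were called higher. Of 16 cumulus and granulosa markers 1 was at 1 FPKM or more at 17 h and 4 at 20 h, with sums of 6.40 to 6.63 and then 10.02 to 10.1. Of 8 blood markers 0 were and then 1, with sums of 0.0663 to 0.695 and then 2.16 to 3.24. Of 11 sperm and testis markers 2 were at both times. The part of these genes of other cells in the calls at 20 h was not tested.

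In the MT2Mm knockout few members were called in this unfiltered fit. limma called 7 of 124 at Early2c, 2 higher and 5 lower, where 10.8% of all rows and 4.05% of annotated lncRNA rows were called higher, and 6.2% and 5.46% lower. Gm16136 was 0.363, 0.175 and 0.368 in knockout columns, all under the controls (log2 difference -0.62, SE 0.11, adjusted p 0.00367). Lrrc75aos2 was 0.329, 0.595 and 0.323 in controls and 0.0560, 0.0501 and 0.0148 in knockouts (-0.75, SE 0.15, adjusted p 0.00745), and Gm49432 was 0.182, 0.606 and 0.349 and listed at 0 in all 3 knockouts. 1700061E17Rik and Gm44053 were also lower. Firre was 0.0766, 0.125 and 0.0743 in controls and 0.126, 0.234 and 0.228 in knockouts (log2 difference 0.23, adjusted p 0.029), and Gm32885 was 0, 0.0560 and 0.145 and then 0.420, 0.260 and 0.224 (0.50, adjusted p 0.00696). At Late1c no member was called in this fit, where 0.00463% of rows were. In the LncR-3363 knockdown 1 of 96 members was called without a filter, Gm42047, at 0.571, 0.45, 0.495 and 0.512 in controls and 0.0919, 0.132, 0.313 and 0.138 in KD-1cell (log2 difference -0.60, SE 0.15, adjusted p 0.0373), where 4.13% of rows were called lower. Both knockdown and control columns of this member lay under 0.6 FPKM.

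**Figure D5:**
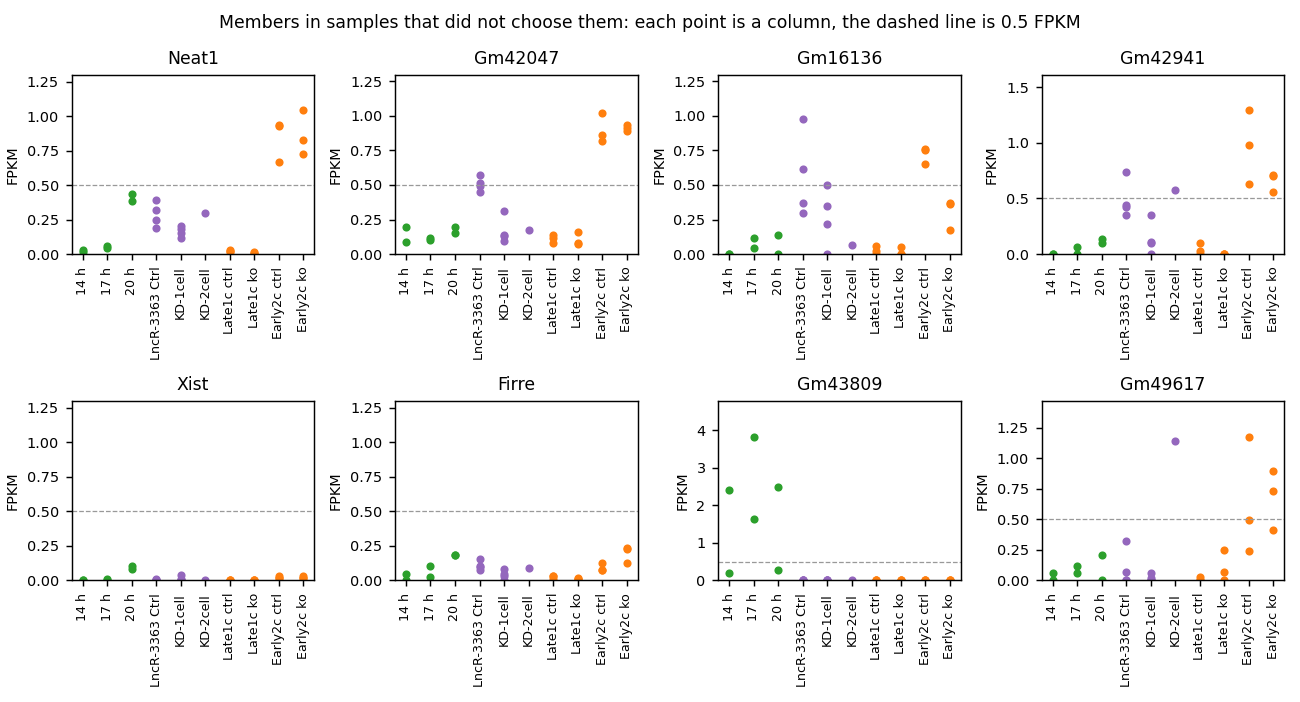
FPKM of 8 members in the samples that the rule did not use, each point a column and the dashed line 0.5 FPKM. Neat1, Gm42047, Gm16136 and Gm42941 are higher at Early2c than at Late1c, Xist stays at 0.107 or less, and Gm43809 is seen in the time series alone.

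At the thresholds of the rule, the members just inside were 5031425E22Rik and 4833417C18Rik, with highest late means of 1.01 and 1.02 FPKM, and the rows just outside were Gm16740 and Gm26624, at 0.9996 and 0.992. On the early side Gm48529 and Gm15344 were just inside, with highest early means of 0.496 and 0.494, and Gm47708 and Gm34059 just outside, at 0.504 and 0.508. With both thresholds met in every column 104 lncRNAs remained of the 142, with a late minimum of 2 FPKM 52 did, and with an early limit of 0.25 FPKM 97 did.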

How the data were processed

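The authors deposited FPKM in 43 columns for 57 samples; late stages and the 3 times have fewer columns than labelled samples. The submitters' processing notes list GRCm38, Cufflinks, cutadapt 1.18, StringTie 1.3.4d, HISAT2 2.1.0 and Cuffdiff 2.2.1 without a role for each. Use of strand in counting is not stated, though the kits were stranded per the labels. Low values are not whole multiples of a step, so depth is unknown. Separate collections are not stated for replicates, so p-values may measure technical spread. Columns of the knockdown were matched to LncR-3363 by the structure of the series alone.

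Rows were tested with limma 3.58.1 (R 4.3.3) on log2(FPKM + 0.5), with a mean trend, a filter of 1 FPKM in as many columns as the smallest group, Benjamini-Hochberg adjustment over all rows tested and calls under 0.05, and the fit was tested on simulated data. This scale understates changes of low genes. Stages, times and MT2Mm groups each shared a fit, and KD-2cell entered none. Some neighbouring genes are not reported here. The rule for named genes took members of 4 lncRNA lists, members called in samples outside the rule, the 5 highest at each late stage and among antisense and divergent members, rows at the thresholds and the 5 rows most like Xist; others were named after their values were seen. Members and lists were chosen with earlier results of these data known. Alternatives changed the pseudocount, filter, scaling, block, groups in the fit and each column. Python 3.11.15, pandas 2.3.3 and Matplotlib 3.10.9 served the rest.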

Additional observations from a re-analysis of the deposited data

Results flagged for a closer look

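In the single KD-2cell sample of the LncR-3363 knockdown, which entered no comparison, 3 members lay above 0.5 FPKM and above all 4 control columns. Gm49617, a sense_intronic lncRNA on chromosome 16, was at 1.14 FPKM, against at most 0.320 in the controls and 0.0578 in KD-1cell. Gm15344 was at 0.725, against at most 0.439 and 0.0231, and AI480526, divergent to the histone methyltransferase gene Setd1b, was at 0.636, against at most 0.367 and 0.435. With 1 sample there is no replicate check, and values of this size also occurred at Early2c in the MT2Mm controls, where Gm49617 was 1.176, 0.494 and 0.240.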

How the results depend on the processing

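Read depth is unknown, and 2 columns a stage limit precision. A late minimum of 2 FPKM left 52 members, 40 of them highest in the blastocyst. Each stage column left out gave 139 to 158 members, 86 to 93 of them highest in the blastocyst. With columns scaled by the median of ratios 116 lncRNAs met the rule, 65 of them (56.0%) highest in the blastocyst. At 1 FPKM, 2 members rather than 12 appeared in groups the rule did not use, and 11 to 14 with a column left out. A window of 5 kb gave 14 divergent members. Fits of the contrasted groups alone called 18 members at 8-cell, 22 at morula, 15 partners at morula, and 12 and 13 X-inactivation factors at morula and blastocyst; the cause was not tested. A pseudocount of 0.1 FPKM called 4 partners at morula. Without a filter limma called 1 member at 17 h, 2 at 20 h, 1 in the knockdown, 7 in the knockout at Early2c and 39 at Early2c against Late1c, since more members could then be tested.

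With a column left out, the members called ran from 21 to 32 at 8-cell, 23 to 34 at morula and 26 to 65 at blastocyst. The count was 0 in every comparison of the other samples. There the filter of the main fit left 1 member to test in the time series and 0 in the knockdown and knockout, so this count could hardly change. Partners ran from 19 to 22 at 4-cell, 6 to 9 at 8-cell, 2 to 3 at morula and 17 to 20 at blastocyst. X-inactivation factors ran from 4 to 5, 3 to 5, 2 to 2 and 5 to 8 at the same steps. The changes of Foxe1 and Cmtm7 at 4-cell and blastocyst, of Gata6 and Sox21 at 4-cell and of Sfmbt2 and Bmyc at blastocyst kept direction and call under every alternative run; those of other partners were not recomputed.

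The labels tie columns of equal replicate number by the number alone. Correlations of residuals between columns of equal number ran from -0.0889 to 0.0891 in the stage series. With 2 columns a stage the residuals mirror each other, so these values do not show whether equal numbers share more. The range was 0.0199 to 0.0761 in the knockdown, against -0.112 to 0.098 for unequal numbers. In the MT2Mm groups it was -0.138 to 0.153, against -0.277 to 0.213. With the replicate number as a block 34 members were called at morula and 80 at blastocyst, 5 and 20 partners, and 2 and 8 factors, and no count moved by over 1.5 times. No block fit was possible for the steps that involve 4-cell columns, whose numbers match no other stage.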
